A study of Mus musculus with 23 samples.

Results

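The transcription factors that hold mouse embryonic stem cells (ESC) in naive pluripotency were followed across every condition of the study. They are 8 genes, chosen by name: Nanog, Prdm14, Zfp42, Esrrb, Nr5a2, Nr0b1, Tfcp2l1 and Tbx3. They make up 8 of the 53607 gene rows of the deposited count table, and all 8 passed the filter on low counts that left 20372 genes for testing. The study asked how ERF, a transcriptional repressor of the ETS family, and RAS signalling act on the way out of naive pluripotency. RNA was sequenced in 23 libraries of 8 groups, each of 3 libraries except one of 2.

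All groups share 1 genetic background. Per the labels, every line is H-Ras-/- and N-Ras-/-, carries loxP-flanked alleles of the remaining RAS gene and expresses Ubiq-CreERT2, a ubiquitous Cre recombinase that 4-hydroxytamoxifen (OHT) switches on. The reference line is ERF WT without OHT, so it keeps a single RAS gene. "RAS deleted" stands for the same line after OHT for 6 days. "ERF knockout" stands for ERF KO cells without OHT, and "double mutant" for ERF KO cells after OHT for 6 days. Each of the 4 genotypes was sampled in 2iL and in FA. 2iL holds cells in the naive state with LIF, the MEK inhibitor PD0325901 and the GSK3 inhibitor CHIR99021. FA moves them towards epiblast-like cells with FGF2 (12 ng/ml) and Activin A (20 ng/ml) for 48 hours. The reference line in FA is the group of 2 libraries. No group received OHT with RAS left intact, so an effect of OHT itself and one of losing RAS cannot be told apart. The number of ERF KO clones is not given in the labels. An effect of losing ERF and a difference between clones therefore cannot be told apart. Whether libraries of a group came from separate cultures is not given either. The p-values thus measure the spread between these libraries, which may be technical.

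Naive pluripotency rests on a network of transcription factors that activate one another and are fed by LIF through Stat3 and by GSK3 inhibition through relief of Tcf7l1 repression, while FGF signalling through RAS, MEK and ERK dismantles it. Nanog is a homeodomain factor at the centre of the network. Prdm14 is a PR-domain protein known to hold down FGF signalling and DNA methyltransferases in ESC, and Zfp42 (Rex1) is a zinc-finger protein used as a marker of exit from the naive state. Esrrb, Nr5a2 and Nr0b1 are orphan nuclear receptors: Esrrb is a main effector of GSK3 inhibition, Nr5a2 can bind the Oct4 gene, and Nr0b1 (Dax1) acts mostly as a corepressor. Tfcp2l1 is a CP2-family factor induced by LIF and Stat3, and Tbx3 is a T-box factor that is active in ESC and also in primitive endoderm. ERF is known to be exported from the nucleus when ERK phosphorylates it, so ERF represses most where ERK is quiet.

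The members lie on 6 chromosomes in the GENCODE annotation of GRCm38, all as protein-coding genes. Nanog is at chr6:122707489-122714633 on the plus strand and Zfp42 at chr8:43295063-43306980 on the minus strand. Prdm14 (chr1:13113457-13127163, minus), Tfcp2l1 (chr1:118627945-118685168, plus) and Nr5a2 (chr1:136842571-136960448, minus) share chromosome 1. Esrrb is at chr12:86361117-86521628 (plus), Tbx3 at chr5:119670669-119684724 (plus) and Nr0b1 at chrX:86191764-86195947 (plus). Pseudogenes or antisense rows with similar names held at most 212 counts in a library (Zfp42-ps1), 1 (Nanog-ps1), 37 (Tbx3os1) and 18 (Tbx3os2).

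RefSeq promoter windows (GRCm38.p6) matched 6 of the 8 members, in 9 windows of 250 bases before and 50 after a start. The bases upstream of 3 starts are shown because these genes end farthest apart when RAS is deleted: Nanog and Zfp42 stay high in FA, and Tfcp2l1 falls the most. Capitals mark the OCT-SOX composite site of Nanog.
Nanog promoter, chr6:122707239-122707488, plus strand: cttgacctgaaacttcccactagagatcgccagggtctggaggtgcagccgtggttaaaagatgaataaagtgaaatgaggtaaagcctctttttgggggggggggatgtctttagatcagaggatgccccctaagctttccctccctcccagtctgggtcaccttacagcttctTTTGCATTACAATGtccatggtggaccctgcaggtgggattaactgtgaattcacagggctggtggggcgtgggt
Zfp42 promoter, chr8:43307010-43307259, minus strand: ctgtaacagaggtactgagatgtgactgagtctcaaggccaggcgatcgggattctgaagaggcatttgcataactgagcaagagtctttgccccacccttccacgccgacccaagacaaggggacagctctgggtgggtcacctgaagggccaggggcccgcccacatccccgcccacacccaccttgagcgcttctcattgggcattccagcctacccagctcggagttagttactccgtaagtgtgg
Tfcp2l1 promoter, chr1:118627695-118627944, plus strand: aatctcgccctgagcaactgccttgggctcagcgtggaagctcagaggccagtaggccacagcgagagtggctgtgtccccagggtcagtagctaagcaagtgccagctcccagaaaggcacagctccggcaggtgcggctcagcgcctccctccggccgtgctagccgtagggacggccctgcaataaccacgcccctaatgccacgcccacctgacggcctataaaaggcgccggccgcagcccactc
Exact letters of 6 motifs were searched on both strands: the ETS cores CGGAAGT and AGGAAGT, the ESRRB and NR5A2 half-site TCAAGGTCA, the STAT site TTCCNGGAA, the OCT-SOX composite and the PRDM14 site GGTCTCTAA. The ETS cores differ from each other only in their first base. The only match in the 9 windows was the OCT-SOX composite, in the form TTTGCATTACAATG, in both overlapping Nanog windows. Of all 32851 promoter windows of this length, 2 (0.00609%) held that motif, and both were Nanog's. The shares of all windows with a match were 6.42% for CGGAAGT, 9.35% for AGGAAGT, 0.423% for TCAAGGTCA, 1.15% for TTCCNGGAA and 0.256% for GGTCTCTAA. No match says only that these letters are not in this window.

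Libraries held 16.2 M to 29.9 M estimated counts, and 1 predicted gene, Gm26917, took 17.6 to 27.9% of each. Levels below are in CPM, counts-per-million of the TMM-scaled library. Erf was counted at 49.3 to 172 CPM in the 12 libraries labelled ERF KO and at 56.5 to 90.2 CPM in the 11 labelled ERF WT. Hras and Nras were counted in every library too (12.0 to 25.9 and 5.32 to 52.3 CPM). The deleted parts of these genes are not given in the labels, so gene-level counts do not check the genotypes. In all 4 ERF WT groups the library with replicate number 1 had raised expression along chromosome 8, where Zfp42 lies: the median over 582 genes was 1.21 to 1.26 times that of its group's other libraries. The other chromosomes of the members deviated by at most 0.052 (log2). Values without these 4 libraries, an alternative chosen after seeing the data, are given where they change a call. Markers of other cell types were detected in every group: of 8 primitive endoderm and 8 trophoblast markers none was at 0 in any group, and of 6 fibroblast markers 1 (Col3a1) was at 0 in all libraries of 3 of the 2iL groups. In bulk RNA fewer cells of a type and less RNA per cell cannot be told apart.

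Levels between genes can be set side by side only per length, in deposited TPM. In the reference line in 2iL, Nanog was the highest member at 248, 281 and 298 TPM and Prdm14 the lowest at 11.3, 13.3 and 16.4 TPM. Zfp42 (139 to 171 TPM), Esrrb (125 to 135), Tfcp2l1 (102 to 148) and Tbx3 (68.6 to 87.8) lay between them, and Nr0b1 (22.3 to 34.3) and Nr5a2 (15.7 to 27.1) were nearer to Prdm14. The ranges of Zfp42, Esrrb and Tfcp2l1 overlapped, as did those of Nr0b1 and Nr5a2. The top place changed with genotype: Esrrb led in the ERF knockout in 2iL (165, 156 and 149 TPM, against 175, 158 and 127 for Nanog, with overlapping ranges), and Zfp42 in RAS-deleted cells in FA (263, 236 and 212 TPM, against 275, 241 and 180.1 for Nanog, also overlapping).

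**Figure D1:**
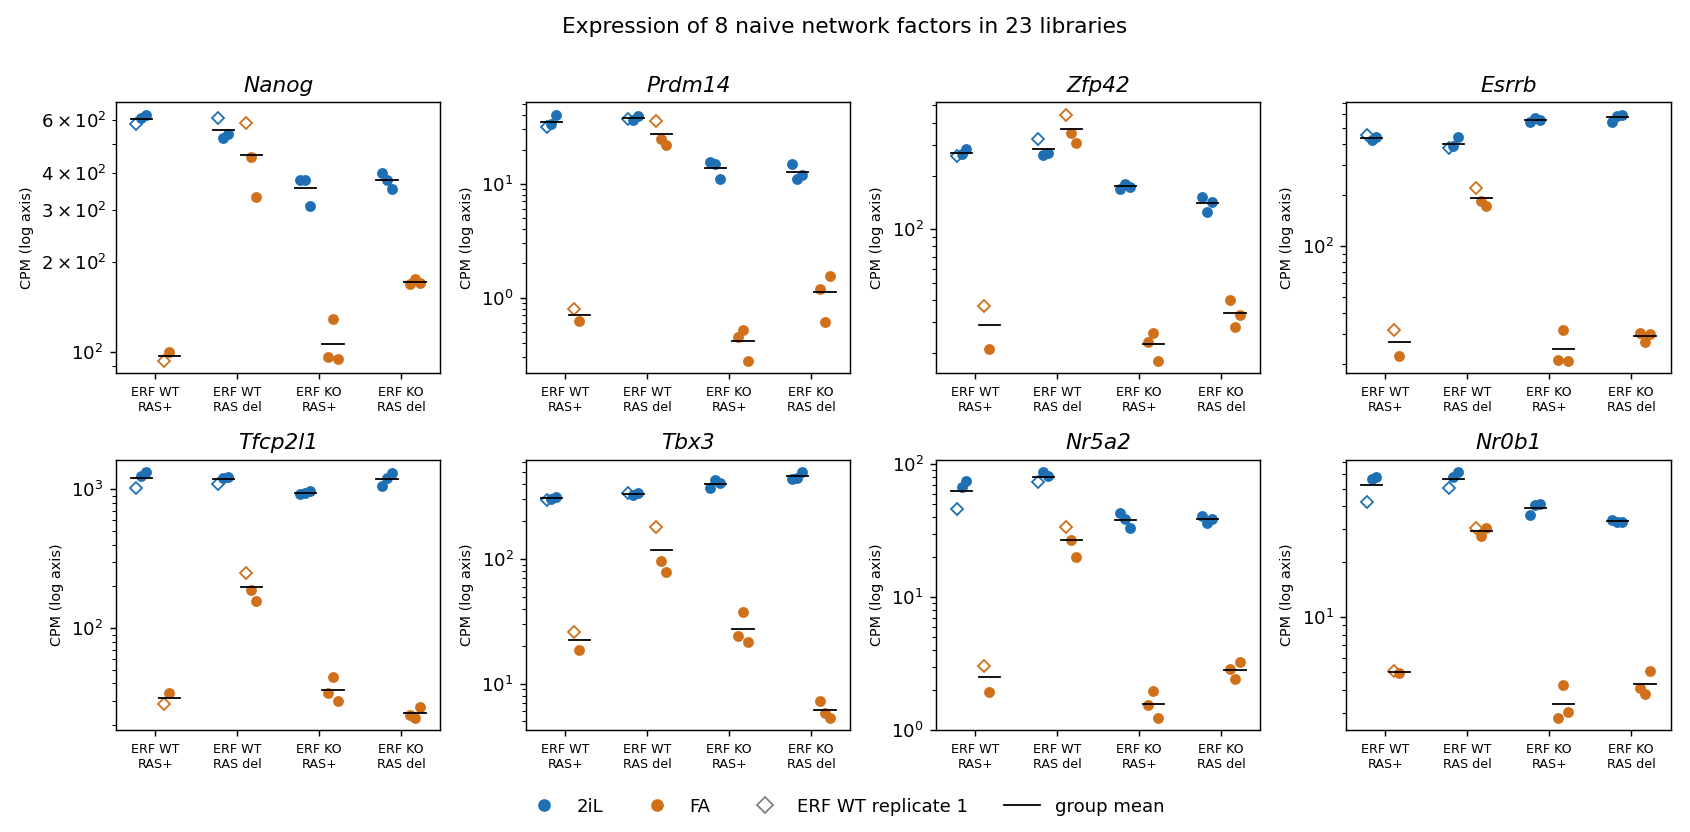
Counts-per-million (log axis) of the 8 members in each library, by genotype and medium, with the group mean as a bar; open diamonds are the ERF WT replicate 1 libraries with raised chromosome 8 expression. In FA all 8 genes are higher in ERF WT cells with RAS deleted than in the other 3 genotypes. Nanog in FA is higher in the double mutant than in the reference.

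The move from 2iL to FA lowered all 8 members in the reference line. A gene was called when edgeR's quasi-likelihood test gave an adjusted p under 0.05 together with a fold change of 2 or more, and by that rule 24% of all tested genes were called for the medium here (10.8% lower). The median log2 fold change was -3.89 over the members and 0.035 over all tested genes. In the same comparison 6 of 8 primitive endoderm markers were called higher (summed level 104 to 109 CPM in 2iL and 180 to 299 CPM in FA). Of 8 trophoblast markers 3 were higher and 2 lower (118 to 135 CPM in 2iL and 35.5 to 45.4 CPM in FA), and of 5 tested fibroblast markers 1 was higher and 1 lower (19.5 to 21.5 CPM over the list of 6 in 2iL and 9.50 to 10.6 CPM in FA). The 4 two-cell-like markers (Zscan4c, Zscan4d, Tcstv3, Usp17lc) had edgeR adjusted p from 0.06 to 0.19, and their summed level was 5.71 to 10.6 CPM in 2iL and 13.5 to 30.7 CPM in FA, without overlap. The part of these markers in the result was not tested.

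Prdm14 fell the most: it was at 31.5, 33.8 and 40.4 CPM in 2iL and 0.792 and 0.616 CPM in FA, a log2 fold change of -5.61 ± 0.30 (SE; adjusted p = 3.4e-12). Its FA values rest on 13 to 22 counts a library, the thinnest of the members in this line. Tfcp2l1 went from 1028, 1248 and 1329.8 CPM to 28.4 and 34.3 CPM (log2 fold change -5.26 ± 0.21, adjusted p = 1.7e-13). Nanog, the core homeodomain factor, fell the least, from 584, 609 and 626 CPM to 93.6 and 100.1 CPM (log2 fold change -2.65 ± 0.18, adjusted p = 3.0e-10). In none of the 8 genes did the FA range touch the 2iL range. Here and below, overlap of ranges was described for named genes only and was not counted over all tested genes. Nr5a2 fell by 4.61 ± 0.26 on the log2 scale, and without the 4 libraries with raised chromosome 8 expression its log2 fold change was -5.21, a shift of more than 1.5-fold.

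To put the genes on 1 scale, each FA library was divided by the 2iL mean of its own genotype. In the reference line 2.00 ± 0.353% (SD, n = 2) of Prdm14 was left, 2.61 ± 0.348% of Tfcp2l1 and 3.99 ± 1.26% of Nr5a2. The middle of the order was taken by Esrrb (6.22 ± 1.57%), Tbx3 (7.30 ± 1.69%) and Nr0b1 (9.62 ± 0.137%). Zfp42 kept 10.8 ± 4.10% and Nanog 16 ± 0.761%. Nanog's share lay above every other member's range. Of the other neighbours in this order, Esrrb and Tbx3 overlapped and so did Nr0b1 and Zfp42.

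**Figure D2:**
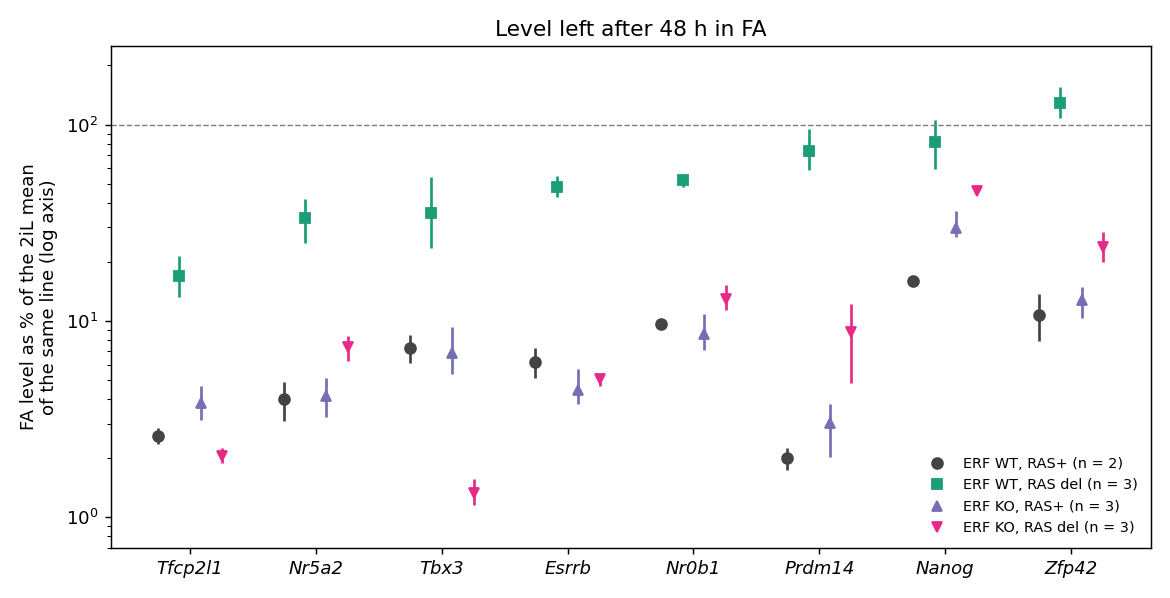
Level in FA as a percent of the 2iL mean of the same genotype (log axis), by gene and genotype; points are means and vertical lines run from the lowest to the highest FA library (n in the legend), and the dashed line is 100%. ERF WT cells with RAS deleted keep 16.9 to 128% by gene, and the double mutant keeps 1.33% of Tbx3 and 45.6% of Nanog.

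Deleting RAS in ERF WT cells raised all 8 members in FA, where 17.3% of all tested genes were called (8.93% higher). The size of the rise differed widely by gene, from 4.72-fold for Nanog to 38.3-fold for Prdm14. The median log2 fold change was 2.75 over the members and 0.001 over all tested genes. In the same comparison all 8 primitive endoderm markers fell, their summed level being 180 to 299 CPM with RAS and 41.0 to 43.7 CPM without. Of 5 tested fibroblast markers 4 fell (9.50 to 10.6 CPM with RAS and 4.28 to 6.35 CPM without, over the list of 6), of 8 trophoblast markers 3 rose and 3 fell (35.5 to 45.4 and 70.0 to 78.0 CPM), and of 4 two-cell-like markers 2 rose (13.5 to 30.7 and 46.0 to 177 CPM). The part of these markers in the result was not tested.

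Among the homeodomain, PR-domain and zinc-finger factors, Nanog went from 93.6 and 100.1 CPM with RAS to 588, 453 and 331 CPM without it (log2 fold change 2.24 ± 0.18, adjusted p = 4.7e-09). Prdm14 went from 0.792 and 0.616 CPM to 35.8, 24.8 and 22.1 CPM (5.26 ± 0.30, adjusted p = 2.1e-11). Zfp42 went from 36.8 and 21.2 CPM to 442, 348 and 307 CPM (3.65 ± 0.23, adjusted p = 4.1e-10). Every library without RAS was above every library with it for these 3 genes, and among the RAS-deleted libraries replicate 1 was the highest and replicate 3 the lowest.

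The 3 nuclear receptors rose as well, by fitted changes between those of Nanog and Zfp42. Esrrb was at 31.9 and 22.3 CPM with RAS and 221, 185 and 173 CPM without (log2 fold change 2.83 ± 0.16, adjusted p = 2.8e-11). Nr5a2 was at 3.06 and 1.94 CPM and 33.5, 26.9 and 20.2 CPM (3.39 ± 0.26, adjusted p = 3.7e-09), and Nr0b1 at 5.07 and 4.97 CPM and 30.5, 27.4 and 30.4 CPM (2.55 ± 0.16, adjusted p = 1.8e-11). The 3 RAS-deleted libraries were nearly level for Nr0b1 and spread from 20.2 to 33.5 CPM for Nr5a2.

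Tfcp2l1, the Stat3-linked factor, rose from 28.4 and 34.3 CPM to 252, 189 and 157 CPM (log2 fold change 2.67 ± 0.19, adjusted p = 9.1e-10). Tbx3 rose from 26.0 and 18.7 CPM to 179.7, 95.5 and 78.3 CPM (2.39 ± 0.30, adjusted p = 6.5e-06), with replicate 1 standing well above the other 2. In the RAS-deleted FA group replicate 1 was the highest library for 8 of the 8 members. It is one of the 4 libraries with raised chromosome 8 expression, and without those 4 all 8 rises were still called, with log2 fold changes from 1.98 (Nanog) to 5.25 (Prdm14). The reference group then holds 1 library, which is assumed to vary like the other groups.

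How far the RAS-deleted cells still fell between 2iL and FA separated the members into those called and those not. Of the 8, 4 were called lower, beside 16.5% of all tested genes (6.59% lower). Tfcp2l1 fell by 2.57 ± 0.16 on the log2 scale (adjusted p = 1.2e-10), from 1101, 1210.0 and 1225 CPM to 252, 189 and 157 CPM. Nr5a2 fell by 1.59 ± 0.18 (adjusted p = 5.6e-07), from 73.2, 86.9 and 81.3 CPM to 33.5, 26.9 and 20.2 CPM. The falls of Tbx3 (-1.5 ± 0.24, adjusted p = 8.5e-05) and Esrrb (-1.06 ± 0.13, adjusted p = 1.2e-06) were also called, and in all 4 genes the FA libraries lay under the 2iL libraries.

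The remaining 4 were not called. Nr0b1 missed the 2-fold minimum (-0.95 ± 0.12, adjusted p = 8.2e-07), with 50.6, 58.1 and 61.5 CPM in 2iL and 30.5, 27.4 and 30.4 CPM in FA. Prdm14 differed by -0.45 ± 0.17 (adjusted p = 0.042), again under 2-fold. Nanog had 609.8, 525 and 541 CPM in 2iL and 588, 453 and 331 CPM in FA, ranges that overlap, and a difference of -0.29 ± 0.15 (95% interval -0.59 to 0.01, adjusted p = 0.12). Zfp42 was the single member with a higher mean in FA, 442, 348 and 307 CPM against 322, 263 and 271 CPM in 2iL, a difference of 0.36 ± 0.17 that did not pass (95% interval 0.00 to 0.71, adjusted p = 0.1).

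These calls lie close to the threshold for 2 genes. Esrrb was at -0.99 and not called without the RAS-deleted replicate 3 of 2iL, and at -0.98 and not called without that of FA. Nr0b1 was called without the RAS-deleted 2iL replicate 1 (-1.02), and also when the 4 libraries with raised chromosome 8 expression were left out (-1.05, adjusted p = 3.1e-08), which makes 5 members called. With the medium in these cells 2 of 8 primitive endoderm markers were higher and 2 lower (91.9 to 97.9 CPM in 2iL and 41.0 to 43.7 CPM in FA), 2 of 8 trophoblast markers higher and 3 lower (112 to 128 and 70.0 to 78.0 CPM), 1 of 5 tested fibroblast markers higher and 2 lower (19.3 to 22.9 and 4.28 to 6.35 CPM over the list of 6), and 1 of 4 two-cell-like markers higher (34.9 to 49.7 and 46.0 to 177 CPM). Their part in the result was not tested.

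As a share of the 2iL level, RAS-deleted cells kept 16.9 ± 4.10% (n = 3) of Tfcp2l1, 33.4 ± 8.27% of Nr5a2 and 35.3 ± 16.3% of Tbx3. Esrrb and Nr0b1 were near the middle, at 48.0 ± 6.21% and 51.9 ± 3.08%. Prdm14 kept 73.5 ± 19.3%, Nanog 81.9 ± 23% and Zfp42 128 ± 24.4%. Prdm14 held the lowest share of the 8 in the reference line and the third highest share here, whereas Tfcp2l1 was among the 2 lowest in both; no test was made between genes. The difference between the genotypes' medium responses was itself tested for each gene. All 8 of these interactions of medium and RAS in ERF WT cells were called (11.9% of all tested genes), from 2.27 ± 0.37 for Tbx3 (adjusted p = 2.5e-04) to 5.17 ± 0.35 for Prdm14 (adjusted p = 1.0e-09).

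Without ERF, RAS-deleted cells had far lower levels in FA. All 8 members were called lower in the ERF KO cells, beside 16.6% of all tested genes called (8.48% lower). The median was -3.13 over the members and 0.013 over all tested genes. Of the primitive endoderm markers 2 of 8 were called higher in the same comparison, their summed level being 41.0 to 43.7 CPM with ERF and 80.8 to 214 CPM without. Of 8 trophoblast markers 2 were higher and 3 lower (summed level 70.0 to 78.0 CPM with ERF and 26.1 to 28.8 CPM without), and of 5 tested fibroblast markers 3 were higher (4.28 to 6.35 CPM over the list of 6 with ERF and 9.32 to 11.4 CPM without). No two-cell-like marker was called. The part of these markers in the result was not tested.

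Prdm14 fell from 35.8, 24.8 and 22.1 CPM with ERF to 1.19, 0.612 and 1.53 CPM without it, a log2 fold change of -4.62 ± 0.23 (adjusted p = 3.1e-12). Tbx3 fell from 179.7, 95.5 and 78.3 CPM to 7.27, 5.84 and 5.30 CPM (-4.25 ± 0.29, adjusted p = 3.7e-09). Zfp42, the exit marker, fell from 442, 348 and 307 CPM to 39.8, 28.0 and 32.7 CPM (-3.45 ± 0.19, adjusted p = 6.0e-11). These 3 genes had the largest falls, and no double mutant library reached the ERF WT range.

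Nr5a2 (-3.23 ± 0.22), Tfcp2l1 (-3.03 ± 0.16), Nr0b1 (-2.77 ± 0.14) and Esrrb (-2.72 ± 0.14) fell by intermediate amounts, with adjusted p from 4.5e-13 to 4.8e-10. Nanog fell the least, from 588, 453 and 331 CPM to 169.7, 175 and 171 CPM (-1.41 ± 0.15, adjusted p = 2.1e-07). Its 3 double mutant libraries lay close together.

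With RAS present, no member was called for the ERF knockout in FA. By edgeR 0 of 8 passed the call rule (2.36% of all tested genes were), 2 had an unadjusted p under 0.05, and DESeq2 called 0. Nr0b1 passed on p alone (-0.58 ± 0.18, adjusted p = 0.038), with 5.07 and 4.97 CPM in the reference and 2.81, 4.26 and 3.03 CPM in the knockout. The 95% intervals of Prdm14 (-1.77 to 0.22, from 7 to 22 counts a library) and Nr5a2 (-1.38 to -0.01) reach beyond 2-fold lower, so a fall of that size lies within the error of these libraries. Of the other 5, the outermost bounds were -0.81 to 0.05 for Zfp42 and -0.31 to 0.90 for Tbx3. These values rest on 2 reference libraries: Zfp42 was at 0.11 without replicate 1 and at -0.70 (adjusted p = 0.032) without replicate 2, Esrrb at 0.17 and -0.36, and Nr0b1 did not pass on p without either (adjusted p = 0.26 and 0.096). In the ERF knockout replicate 2 was the highest library for 8 of the 8 members.

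The dependence of the RAS effect on ERF in FA was tested as an interaction, and all 8 members were called (13.7% of all tested genes). The difference ran from -1.55 ± 0.22 for Nanog (adjusted p = 3.1e-05) to -4.55 ± 0.41 for Tbx3 (adjusted p = 4.6e-07). Prdm14 (-3.84 ± 0.58), Tfcp2l1 (-3.23 ± 0.24) and Zfp42 (-3.06 ± 0.28) followed Tbx3. The nuclear receptors Esrrb (-2.57 ± 0.21), Nr5a2 (-2.54 ± 0.40) and Nr0b1 (-2.19 ± 0.22) lay between these and Nanog.

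**Figure D3:**
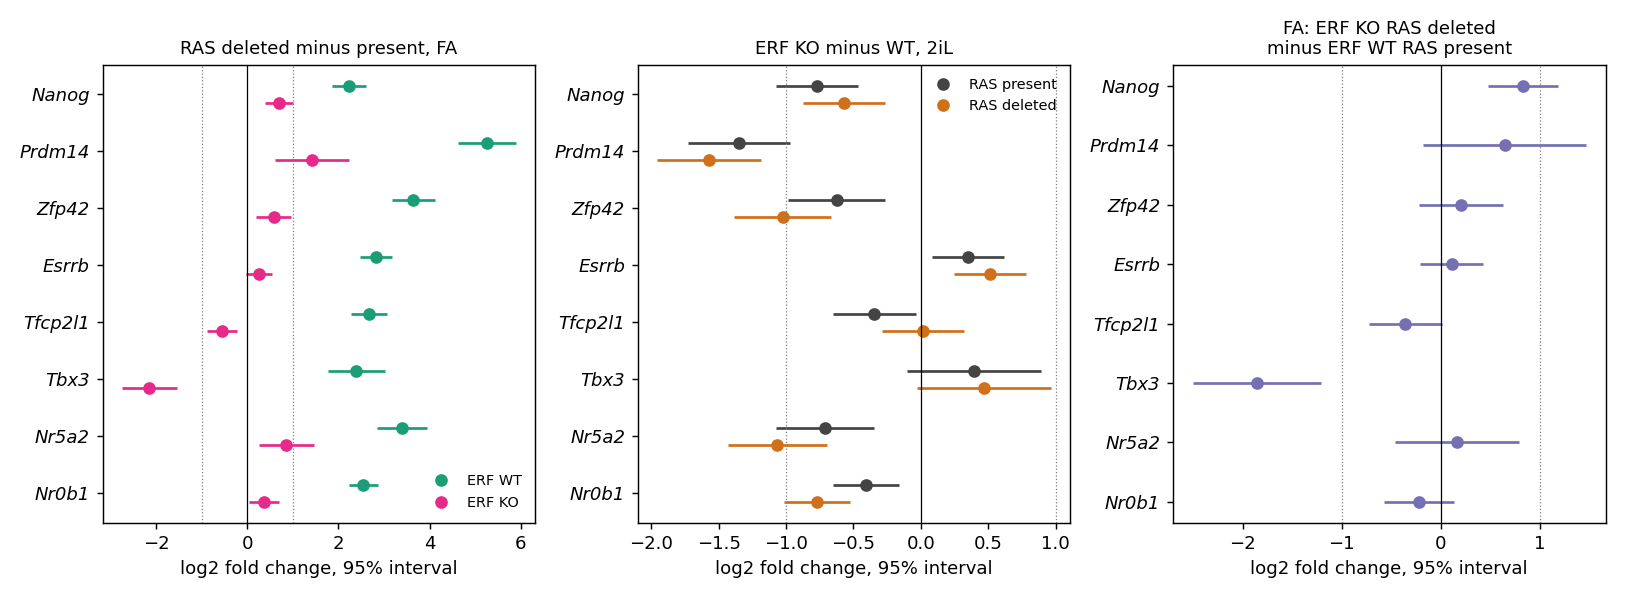
Fitted log2 fold changes with 95% intervals for each member: RAS deletion in FA by ERF genotype, ERF knockout in 2iL by RAS status, and the double mutant against the reference in FA; dotted lines are 2-fold. RAS deletion raises all 8 genes in ERF WT cells but lowers Tbx3 in ERF KO cells, and Esrrb and Tbx3 lie to the right of 0 for the ERF knockout in 2iL.

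In ERF KO cells, RAS deletion moved the members in different directions in FA, and 2 were called (6.88% of all tested genes). Tbx3 fell, from 23.9, 37.2 and 21.4 CPM with RAS to 7.27, 5.84 and 5.30 CPM without, a log2 fold change of -2.15 ± 0.28 (adjusted p = 4.5e-05). This is the reverse of its rise in ERF WT cells. Prdm14 rose, from 0.448, 0.521 and 0.279 CPM to 1.19, 0.612 and 1.53 CPM (1.42 ± 0.39, adjusted p = 0.011).

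The Prdm14 call rests on 7 to 37 counts a library. Without replicate 3 of the ERF knockout in FA it was 1.19 with an adjusted p of 0.053, and without replicate 3 of the double mutant 1.15 with an adjusted p of 0.055. The call held in every alternative that keeps all libraries, with an adjusted p of at most 0.024. Nanog had 95.9, 129 and 94.8 CPM with RAS and 169.7, 175 and 171 CPM without, ranges that do not overlap, and passed on p but not on size (0.69 ± 0.15, adjusted p = 0.0019). Nr5a2 (0.85 ± 0.29, adjusted p = 0.034), Zfp42 (0.58 ± 0.18, adjusted p = 0.025) and Tfcp2l1 (-0.56 ± 0.16, adjusted p = 0.013) were in the same position. Esrrb (0.25 ± 0.14, adjusted p = 0.18) and Nr0b1 (0.36 ± 0.16, adjusted p = 0.1) did not pass. Of the primitive endoderm markers 5 of 8 were called lower here (summed level 284 to 386 CPM with RAS and 80.8 to 214 CPM without). Of 8 trophoblast markers 1 was higher and 2 lower (22.1 to 25.5 and 26.1 to 28.8 CPM), and of 5 tested fibroblast markers 1 was higher (8.65 to 11.7 and 9.32 to 11.4 CPM over the list of 6). The part of these markers in the result, Tbx3 included, was not tested.

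The medium lowered all 8 members in both ERF KO genotypes. In the ERF knockout 19.7% of all tested genes were called (7.46% lower), and the members' log2 fold changes ran from -1.74 ± 0.15 (Nanog) to -5.04 ± 0.29 (Prdm14). In the double mutant 24.9% were called (10.4% lower), and they ran from -1.13 ± 0.15 (Nanog) to -6.22 ± 0.31 (Tbx3). Tbx3 had 439, 448 and 497 CPM in 2iL and 7.27, 5.84 and 5.30 CPM in FA there, the largest fall of any member in any genotype. Markers of other cell types moved with the medium here too. In the ERF knockout 3 of 8 primitive endoderm markers were higher (summed level 248 to 547 CPM in 2iL and 284 to 386 CPM in FA), 3 of 8 trophoblast markers were higher and 1 lower (46.5 to 57.2 and 22.1 to 25.5 CPM), and 2 of 5 tested fibroblast markers were higher and 1 lower (14 to 16.4 and 8.65 to 11.7 CPM over the list of 6). In the double mutant 2 primitive endoderm markers were higher and 1 lower (130.3 to 249 and 80.8 to 214 CPM), 2 trophoblast markers higher and 1 lower (56.2 to 59.7 and 26.1 to 28.8 CPM), and 2 fibroblast markers higher and 1 lower (14.6 to 21.7 and 9.32 to 11.4 CPM). Their part in the members' changes was not tested.

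By mean, the shares left in FA put Nanog over Zfp42 over the rest in both ERF KO genotypes, as in the reference line. In the ERF knockout the ranges of Zfp42 (10.4 to 14.9%) and Nr0b1 (7.15 to 10.8%) overlapped. The ERF knockout kept 29.9 ± 5.40% of Nanog and 12.8 ± 2.27% of Zfp42, and between 3.02% (Prdm14) and 8.56% (Nr0b1) of the others. The double mutant kept 45.6 ± 0.795% of Nanog, 23.9 ± 4.27% of Zfp42 and 13 ± 1.98% of Nr0b1. It kept 8.82 ± 3.69% of Prdm14, 7.40 ± 1.08% of Nr5a2, 5.10 ± 0.363% of Esrrb and 2.05 ± 0.191% of Tfcp2l1, and 1.33 ± 0.221% of Tbx3. Tbx3 thus moved from the fifth lowest share in the reference line and in the ERF knockout to the lowest in the double mutant.

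As interactions, the effect of RAS deletion on the medium response in ERF KO cells was called for 2 members (4.59% of all tested genes): Tbx3 at -2.35 ± 0.37 (adjusted p = 7.0e-04) and Prdm14 at 1.55 ± 0.44 (adjusted p = 0.023). The Prdm14 interaction was lost without any 1 of 3 libraries in FA, double mutant replicate 1 or 3 or ERF knockout replicate 3, with adjusted p from 0.066 to 0.074. The effect of ERF on the medium response with RAS deleted was called for 7 members (11.3% of all tested genes), from -2.0 ± 0.18 (Nr0b1) to -4.72 ± 0.37 (Tbx3). Nanog missed the 2-fold minimum there (-0.84 ± 0.21, adjusted p = 0.0045). With RAS present the same interaction was called for 0 members by edgeR and by DESeq2 (4.27% of all tested genes by edgeR), with 3 at an unadjusted p under 0.05. Nanog had the largest of these (0.90 ± 0.22, adjusted p = 0.013).

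Set directly against the reference line in FA, the double mutant differed in 1 member by the call rule (3.32% of all tested genes were called). That was Tbx3, at 7.27, 5.84 and 5.30 CPM against 26.0 and 18.7 CPM (log2 fold change -1.86 ± 0.31, adjusted p = 7.7e-04). Nanog was higher in every double mutant library, 169.7, 175 and 171 CPM against 93.6 and 100.1 CPM, but under 2-fold (0.83 ± 0.17, adjusted p = 0.0031). The 95% intervals of the other 6 were -0.18 to 1.46 for Prdm14, -0.46 to 0.78 for Nr5a2, -0.23 to 0.63 for Zfp42, -0.21 to 0.43 for Esrrb, -0.58 to 0.13 for Nr0b1 and -0.73 to 0.01 for Tfcp2l1. These intervals rest on 2 reference libraries. Zfp42 was at 0.68 (adjusted p = 0.065) without reference replicate 1 and at -0.13 without replicate 2, and Nr5a2 at 0.57 and -0.10. In the same comparison 6 of 8 primitive endoderm markers were called lower (summed level 180 to 299 CPM in the reference and 80.8 to 214 CPM in the double mutant), and 1 of 8 trophoblast markers was higher and 2 lower (35.5 to 45.4 and 26.1 to 28.8 CPM). The two-cell-like markers had edgeR adjusted p from 0.13 (Zscan4d) to 0.62 (Tcstv3), with a summed level of 13.5 to 30.7 CPM in the reference and 31.8 to 78.7 CPM in the double mutant. Their part in the result was not tested.

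In 2iL, where MEK is inhibited, deleting RAS moved no member by the call rule. In ERF WT cells 0 of 8 were called by edgeR (1.20% of all tested genes) and 0 by DESeq2, with 1 at an unadjusted p under 0.05. That was Nr5a2, at 46.2, 67.5 and 74.3 CPM with RAS and 73.2, 86.9 and 81.3 CPM without (0.36 ± 0.17, adjusted p = 0.22). In ERF KO cells 0 of 8 were called by either tool (0.211% of all tested genes by edgeR), again with 1 at an unadjusted p under 0.05, Tfcp2l1 (0.33 ± 0.15, adjusted p = 0.29). All 16 intervals left out a 2-fold change, the outermost bounds being 0.01 to 0.72 for Nr5a2 in ERF WT cells and -0.30 to 0.70 for Tbx3 and -0.68 to 0.04 for Zfp42 in ERF KO cells. The interaction of RAS and ERF in 2iL was called for 0 members by either tool (0.378% of all tested genes by edgeR), with 1 at an unadjusted p under 0.05. For RAS deletion in ERF WT cells Tcstv3 (two-cell-like, 3.67, adjusted p = 0.025) and Cdx2 (trophoblast, 3.02, adjusted p = 0.0085) were called higher. The summed two-cell-like level was 5.71 to 10.6 CPM with RAS and 34.9 to 49.7 CPM without. The summed trophoblast level was 118 to 135 and 112 to 128 CPM. In ERF KO cells no marker of either list was called. The part of these markers was not tested.

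For the ERF knockout in 2iL with RAS present 1 of 8 members was called, a share near that of all tested genes (9.72%, 4.52% lower). Prdm14 fell from 31.5, 33.8 and 40.4 CPM to 15.5, 14.8 and 11.1 CPM (-1.35 ± 0.18, adjusted p = 1.1e-05). Nanog had 584, 609 and 626 CPM in the reference and 379, 379 and 310.1 CPM in the knockout, ranges that do not overlap (-0.77 ± 0.15, adjusted p = 5.4e-04). Nr5a2 (-0.71 ± 0.17), Zfp42 (-0.63 ± 0.17) and Nr0b1 (-0.41 ± 0.12) were lower with adjusted p from 0.0045 to 0.012, all under 2-fold.

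With RAS deleted 3 members were called lower (13% of all tested genes, 7.15% lower). Prdm14 fell from 37.0, 36.2 and 39.3 CPM to 14.8, 11.1 and 11.9 CPM (-1.57 ± 0.18, adjusted p = 1.0e-06). Nr5a2 fell from 73.2, 86.9 and 81.3 CPM to 40.4, 36.0 and 39.0 CPM (-1.07 ± 0.17, adjusted p = 7.6e-05). Zfp42 fell from 322, 263 and 271 CPM to 153, 125 and 143 CPM (-1.03 ± 0.17, adjusted p = 1.2e-04). Nanog (-0.57 ± 0.15, adjusted p = 0.0041) and Nr0b1 (-0.77 ± 0.12, adjusted p = 2.0e-05) were lower by less than 2-fold. The Zfp42 fall is at the edge of the rule: it was not called without RAS-deleted replicate 1 (-0.92), without double mutant replicate 2 (-0.95), or without the 4 libraries with raised chromosome 8 expression (-0.92, adjusted p = 7.2e-05).

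Esrrb stood on the other side of 0 at both RAS states. It had 449.6, 420.0 and 437 CPM in the reference and 541, 572 and 551 CPM in the ERF knockout (0.35 ± 0.13, adjusted p = 0.047). With RAS deleted it had 377, 387 and 441 CPM with ERF and 541, 586 and 595 CPM without (0.52 ± 0.13, adjusted p = 0.0029), so the ranges separated in both cases by less than 2-fold. Tbx3 had separated ranges too, 297, 305 and 315 CPM against 369, 432 and 404 CPM with RAS present, and 336, 327 and 339 CPM against 439, 448 and 497 CPM with RAS deleted, but neither difference passed (0.39 ± 0.23, adjusted p = 0.24, and 0.47 ± 0.23, adjusted p = 0.13). Tfcp2l1 did not pass at either state (-0.35 ± 0.15 with RAS present, 0.02 ± 0.15 with RAS deleted).

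Markers of other cell types differed in the same 2iL libraries. With RAS present, 6 of 8 primitive endoderm markers were called higher in the ERF knockout, with a summed level of 104 to 109 CPM in the reference and 248 to 547 CPM in the knockout. All 4 two-cell-like markers were called higher (5.71 to 10.6 CPM against 23 to 70.2 CPM), and 4 of 8 trophoblast markers lower (118 to 135 CPM against 46.5 to 57.2 CPM). With RAS deleted, 2 of 8 primitive endoderm markers were higher (91.9 to 97.9 CPM against 130.3 to 249 CPM), no two-cell-like marker was called, and 3 of 8 trophoblast markers were lower (112 to 128 CPM against 56.2 to 59.7 CPM). In both cases 1 of 5 tested fibroblast markers was higher and 1 lower. The part of these markers in the members' differences was not tested.

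Ordered by level over the 8 groups, the members fall into a few shapes. Nanog ran from 606 ± 21.4 CPM (SD, n = 3) in the reference in 2iL to 96.8 ± 4.61 CPM (n = 2) in the reference in FA. Its 5 upper groups, the 4 of 2iL and RAS-deleted cells in FA, each overlapped the next in the order. Prdm14 had 3 high groups, all ERF WT (27.6 ± 7.23 to 37.5 ± 1.59 CPM), 2 middle groups, both ERF KO in 2iL (12.6 ± 1.94 and 13.8 ± 2.37 CPM), and 3 groups from 0.416 ± 0.124 to 1.11 ± 0.466 CPM. Zfp42 was highest in RAS-deleted cells in FA, at 366 ± 69.7 CPM (n = 3), a mean above all 2iL groups, although its range overlapped that of the same cells in 2iL.

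Esrrb, Tfcp2l1, Tbx3, Nr5a2 and Nr0b1 were each highest in the 4 2iL groups, then in RAS-deleted FA cells, then in the other 3 FA groups. Nr0b1 in RAS-deleted FA cells, at 29.5 ± 1.75 CPM, came close to the double mutant in 2iL, at 33.3 ± 0.360 CPM, without overlap. For Nr5a2 the neighbours were 26.8 ± 6.66 CPM in RAS-deleted FA cells and 38.2 ± 4.68 CPM in the ERF knockout in 2iL, and their ranges overlapped at 33.3 to 33.5 CPM. Group means spanned 90.1-fold for Prdm14, the most of the 8, and 6.26-fold for Nanog, the least. Tbx3 spanned 75.1-fold, from the double mutant in 2iL to the double mutant in FA, and 6 of its 7 neighbouring pairs of groups did not overlap, against 2 of 7 for Nanog.

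The other genes of the pathway were described by lists written with earlier results of these data known. Of 12 other naive genes, 10 fell and 1 rose with the medium in the reference line. In FA, RAS deletion raised 8 and lowered 1 of them in ERF WT cells, and raised 2 and lowered 2 in ERF KO cells. Jam2, a junction adhesion molecule, had a log2 fold change of 6.01 for RAS deletion in ERF WT cells, and Klf4, a Krüppel-like factor of the network, 3.45. Klf5 (0.02, adjusted p = 0.92) and Tet2 (-0.09, adjusted p = 0.56) did not pass there. With RAS deleted, the ERF knockout lowered 9 of the 12 in FA (median -2.08).

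Dppa3 (Stella), a maternal factor, fell in the ERF knockout in 2iL with RAS present (log2 fold change -4.20, adjusted p = 8.3e-10), the only one of the 12 called there. Of 6 general pluripotency genes, 1 rose (Utf1, 2.78) and 1 fell (Sox2, -1.65) with the medium in the reference line, and Pou5f1 (Oct4) was at -0.59. Sox2, the partner of Oct4, changed in FA as well: 1.64 for RAS deletion in ERF WT cells (adjusted p = 1.3e-09) and -1.43 for the ERF knockout with RAS deleted (adjusted p = 8.4e-10). Utf1 went the other way for that RAS deletion (-1.41, adjusted p = 1.7e-09). It was not called for that ERF knockout (0.37, adjusted p = 0.0067). Pou5f1, Sall4, Zfp281 and Dppa4 were called in neither comparison.

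Of 10 formative and primed genes, 9 rose with the medium in the reference line and 9 in RAS-deleted cells. Fgf5, the marker of the formative epiblast, rose by a log2 fold change of 9.47 in the reference and 6.32 with RAS deleted, and Otx2, a homeobox factor of the formative state, by 2.41 and 3.94. Bulk RNA of RAS-deleted FA cells thus held both sets of transcripts. RAS deletion in FA lowered 5 and raised 2 of the 10 in ERF WT cells and raised 3 in ERF KO cells, and none was called between the double mutant and the reference in FA (log2 fold changes from -0.83 for Lef1 to 0.70 for Cdh2).

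The signalling inputs were described in the same way. Of 8 ERK response genes, RAS deletion in FA lowered 6 in ERF WT cells (median -2.99) and 5 in ERF KO cells (median -2.78). Spry4, a feedback inhibitor of the pathway, was at -6.52 and -4.41, and Dusp6, an ERK phosphatase, at -2.89 and -2.22. Of 4 LIF pathway genes, 3 fell with the medium in the reference line, and Socs3, a Stat3 target, was at -3.69 there and at -3.64 with RAS deleted. In 2iL the ERF knockout raised 2 of these 4, Lifr (1.20) and Socs3 (1.51), with RAS present. Of 4 WNT pathway genes, Tcf7l1, the repressor that GSK3 inhibition relieves, fell in the ERF knockout in 2iL (-1.26 with RAS present and -1.66 with RAS deleted). In FA, RAS deletion raised Tcf7l1 in ERF WT cells (1.51) and in ERF KO cells (1.31). For RAS deletion in ERF WT cells Axin2 was at 1.46 in 2iL and at -1.48 in FA. Tcf7 and Ctnnb1 were not called in any of these comparisons.

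For each member the genes with the most similar pattern were found by Pearson's r over the 8 group means of log2(CPM + 1), among 4285 genes with a mean of at least 5 CPM in 1 group and a span of at least 1. The highest r was with Sema4b for Nanog (0.994), St8sia1 for Prdm14 (0.995), Paqr8 for Zfp42 (0.992), Dgke for Esrrb (0.997), Fbrsl1 for Nr5a2 (0.997), Mtm1 for Tfcp2l1 (0.998) and Gpr160 for Tbx3 (0.990). Nr0b1 was closest to another member, Nr5a2 (0.996), which in turn had Nr0b1 second, and Prdm14 held the third place for Zfp42 (0.990). Among the members the lowest r was 0.812, between Nanog and Tbx3. The 8 points share their libraries and a strong split by medium, so high values are common.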

How the data were processed

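Total RNA was depleted of ribosomal RNA, made into strand-specific libraries and read as 75 bp pairs, per the labels' protocols. Per the submitters' processing notes, bcl2fastq 2.20.0, fastp 0.20.0, Salmon and the build mm10 were used; the Salmon version and transcriptome are not given in the sources used here. The authors deposited estimated counts per gene, TPM and effective lengths for each library (per the file headers), and a matrix that equals the estimated counts rounded to whole numbers (0 cells differ). Salmon shares reads among similar transcripts, so close copies are less certain.

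The rounded counts of all 23 libraries were fitted with edgeR 4.0.16 (R 4.3.3, limma 3.58.1): filterByExpr, TMM, 1 coefficient per group, robust quasi-likelihood test, Benjamini-Hochberg adjustment over 20372 genes. Called means an adjusted p under 0.05 and at least 2-fold. Standard errors came from each log2 fold change and its F statistic (ratio to the root of F). There were 13 comparisons and 6 interactions. On simulated data for RAS deletion in ERF WT cells in FA (19481 genes, 200 changed) 98.5% were recovered, with 5 false calls. The simulation gave every gene the same dispersion and planted no change in the other groups. Its rate therefore does not carry over to the spread between the real replicates. DESeq2 1.42.0 was an alternative.

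The members and gene lists were chosen with earlier results of these data known. Named genes are the members, the 3 most similar genes by Pearson's r over group means (mostly the first is printed), and list members picked after their values were seen. Replicates differed by more than sampling noise (chi-square per degree of freedom 3.04 to 44.9 over 22 pairs). Same-numbered libraries deviated together (every r over 0.1, 3 pairs) in 5 of 13 comparisons, the medium in 3 genotypes and RAS deletion in 2iL in both ERF states. The alternatives are described in the closing section; the one without 4 libraries with raised chromosome 8 expression was chosen after seeing the data.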

Additional observations from a re-analysis of the deposited data

Results flagged for a closer look

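Effects that differed between genotypes by a called interaction in edgeR are given as log2 differences. The medium response changed with RAS deletion in ERF WT cells for all 8 members: Nanog 2.36, Prdm14 5.17, Esrrb 2.94, Tfcp2l1 2.70, Tbx3 2.27, Zfp42 3.56, Nr5a2 3.03 and Nr0b1 2.43. In ERF KO cells it changed for Prdm14 (1.55) and Tbx3 (-2.35), in opposite directions. The medium response changed with ERF loss, RAS being deleted, for 7 members: Prdm14 -3.05, Esrrb -3.24, Tfcp2l1 -3.04, Tbx3 -4.72, Zfp42 -2.42, Nr5a2 -2.17 and Nr0b1 -2.0. The RAS effect in FA changed with ERF loss for all 8: Nanog -1.55, Prdm14 -3.84, Esrrb -2.57, Tfcp2l1 -3.23, Tbx3 -4.55, Zfp42 -3.06, Nr5a2 -2.54 and Nr0b1 -2.19. Interactions that share groups are not independent of one another. Groups of 2 or 3 libraries are too small for a test of outlying libraries.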

How the results depend on the processing

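Over the alternatives run (DESeq2, RLE size factors, no filter on low counts, only the compared groups, with and without the replicate block, an effective-length offset, Gm26917 left out, each library left out, and the 4 libraries with raised chromosome 8 expression left out), 14 of 19 counts of called members kept their number in every setting that kept the 2-fold minimum, and 275 of 290 such settings gave the same count. No called direction reversed. When 1 library was left out, 5 of the single members' results became called in at least 1 such setting (6 settings in all) and 4 lost their call (9 settings in all). Without the 4 chromosome 8 libraries 1 result became called and 1 lost its call. The other alternatives in this list changed none of their 152 results each. The replicate block changed no member call: with it RAS deletion in ERF WT cells in FA still gave 8, and so did the medium in the 2 ERF KO genotypes. Dropping the 2-fold minimum made 21 more single results called: 6 members passed for RAS deletion in ERF KO cells in FA, 6 for the ERF knockout in 2iL with RAS present, 6 with RAS deleted and 1 in FA with RAS present, 2 for the double mutant against the reference, 5 for the interaction of medium and RAS in ERF KO cells, 1 for that of medium and ERF with RAS present and 8 with RAS deleted, and 6 for the medium in RAS-deleted ERF WT cells. The shares of all tested genes printed above use the 2-fold minimum, so they are no background for these counts. Leaving out 1 library gave 1 to 3 for RAS deletion in ERF KO cells in FA, 1 to 3 for the interaction of medium and RAS in ERF KO cells, 3 to 5 for the medium in RAS-deleted ERF WT cells, 2 to 3 for the ERF knockout in 2iL with RAS deleted and 7 to 8 for the interaction of medium and ERF with RAS deleted; the other counts did not move. Shares left in FA computed from TPM were 0.823 to 1.45 times those from CPM. Precision is limited by 2 libraries of the reference in FA and by 7 to 37 counts of Prdm14 in 3 FA groups.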
